A study of Mus musculus with 6 samples.

Results

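The neutrophil-attracting chemokines Cxcl1, Cxcl2 and Cxcl3, their receptor Cxcr2, the retention receptor Cxcr4, the granulocyte colony-stimulating factor Csf3 and its receptor Csf3r were followed through 6 single-cell RNA sequencing libraries of mice bearing ovarian tumors. The 7 genes were taken by their symbols from the 32285 genes of the count tables. Their UMIs (counted RNA molecules) were summed per library over neutrophils, monocytes, macrophages and tumor cells picked by marker genes, 24128 of 51633 kept cells. None of the 7 genes was itself a marker of a gate.

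Each library came from 1 treatment group: control, 2-Deoxy-D-glucose (2DG), 2F-Peracetyl-Fucose (2FF), aPDL1 (an antibody against PD-L1), 2DG with aPDL1, and 2FF with aPDL1. Per the study's methods, all mice were young adult female C57BL/6 animals with orthotopically injected KPCA cells (a mouse ovarian cancer line able to repair DNA by homologous recombination), and the controls received the solvent and control rat IgG. 2DG, an analog of glucose and mannose, was injected into the peritoneum. 2FF, a fucose analog, was given by gavage, and in the 2FF groups the tumor cells had also met 2FF before injection, so that a 2FF library differs from control in both. The labels give the tissue as lymph node, and GEO's design text speaks of young and aged mice, whereas the methods describe tumors and 1 age range. T cells were 5.22% of the kept control cells and 25.9% to 38.0% of the treated ones by the same gates, and B cells 0.904% against 1.66% to 4.92%, so that the makeup of the control library differed widely from that of the others. With 1 library per group there is no replicate error and no test. Intervals are exact 95% intervals of counting error only, and all 5 treated libraries are compared with the same control library.

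Cxcl1, Cxcl2 and Cxcl3 are small secreted proteins that bind Cxcr2 and draw neutrophils out of the blood towards inflamed tissue. Csf3, sensed through Csf3r, drives neutrophil production in the marrow. Cxcr4 binds Cxcl12 and holds neutrophils in the marrow, and Cxcr2 acts against it when they leave. Tumor-associated neutrophils and macrophages can make the Cxcr2 ligands themselves.

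The 3 ligand genes lie in the chemokine cluster of chromosome 5, on the plus strand (GRCm38, GENCODE M21). Cxcl3 (ENSMUSG00000029379) spans chr5:90786103-90789600, Cxcl1 (ENSMUSG00000029380) chr5:90891241-90893115 and Cxcl2 (ENSMUSG00000058427) chr5:90903871-90905938, with 101640 bases between Cxcl3 and Cxcl1 and 10755 between Cxcl1 and Cxcl2. Their promoters are shown because these 3 genes share a run of letters that holds an NF-kB-type motif. The genes moved by very different amounts from library to library, and any part of the run in this was not tested. The sequences below run from 120 to 21 bases before the RefSeq start (GRCm38.p6), with GGGAATTTCCC, the longest run that the 3 genes share within the 250 bases before their starts, in capitals. The windows are chr5:90891125-90891224 for Cxcl1, chr5:90903779-90903878 for Cxcl2 and chr5:90785981-90786080 for Cxcl3, plus strand:
Cxcl1: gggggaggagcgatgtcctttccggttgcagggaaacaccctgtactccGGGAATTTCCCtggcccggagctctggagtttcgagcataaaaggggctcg
Cxcl2: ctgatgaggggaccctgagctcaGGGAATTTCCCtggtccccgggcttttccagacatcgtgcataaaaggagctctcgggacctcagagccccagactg
Cxcl3: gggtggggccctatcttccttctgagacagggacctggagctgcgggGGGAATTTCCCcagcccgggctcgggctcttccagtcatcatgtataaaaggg

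The run began 71 bases before the start in Cxcl1, 97 in Cxcl2 and 73 in Cxcl3. Searched on both strands from 250 bases before to 50 after the start, it stood in 14 of 32851 promoter windows (0.0426%), and since the run was picked from these 3 genes its presence in them is no finding. The windows of Cxcr2, Cxcr4 and Csf3r did not hold these letters. A match describes the sequence and is no site or cause.

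The receptors and Csf3 lie elsewhere: Cxcr2 (ENSMUSG00000026180) at chr1:74153989-74161246, plus strand, Cxcr4 (ENSMUSG00000045382) at chr1:128588199-128592293, minus strand, Csf3r (ENSMUSG00000028859) at chr4:126024550-126044440, plus strand, and Csf3 (ENSMUSG00000038067) at chr11:98701263-98703629, plus strand. All 7 are protein-coding genes. Because the ligand genes are related, reads could in principle be shared. The longest identical stretch between the longest coding transcripts was 110 bases for Cxcl2 and Cxcl3 and 23 bases for either with Cxcl1, and within the last 400 bases of each, from which this 3′ assay reads, it was 16, 14 and 14 bases for Cxcl2 with Cxcl3, Cxcl1 with Cxcl2 and Cxcl1 with Cxcl3.

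The libraries held 61859753 to 73885214 UMIs. In the order control, 2DG, 2FF, aPDL1, 2DG with aPDL1 and 2FF with aPDL1, which is kept for every series of 6 values, the gates took 3258, 332, 457, 270, 272 and 346 neutrophils, 2055, 1282, 1755, 2140, 2052 and 2191 monocytes, and 1103, 1138, 1659, 1051, 1365 and 1364 macrophages. Neutrophils were thus 35.9% of the kept control cells and 3.01% to 4.96% of the treated ones. Of the markers kept apart to check the gates, 8 of 8 for neutrophils, 4 of 6 for monocytes and 5 of 6 for macrophages were highest in their own class. The exceptions were Itgal, highest in T cells, and Eno3 and Cd81, highest in the tumor gate.

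The tumor gate held only 0, 7, 18, 2, 4 and 7 cells. In these 38 cells Pax8, a transcription factor of the ovarian cancer lineage, had a UMI in 21 cells, Elf3 in 15 and Cldn6 in 3. These 3 of the 6 check markers were highest in the tumor gate, whereas Upk1b, Upk3b and Wt1 were at 0. Ptprc, the pan-leukocyte gene CD45, which was added to the fixed markers, had a UMI in 15. The cells are therefore described by their gate. Cxcl2 had 49 UMIs in 8 of them and Cxcl1 had 2 UMIs in 1 cell, and Cxcl3, Cxcr2 and Csf3 had 0 UMIs, which allows at most 3.88 CPM (UMIs of the gene per 1e+06 UMIs of the class) each. With 0 such cells in control, no comparison was possible.

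Of neutrophils, monocytes, macrophages and T cells, neutrophils held the highest Cxcl2 level in 6 of 6 libraries. The level, in CPM of all UMIs of the class in that library, was 25196, 12161, 19270, 14913, 21175 and 19453 in neutrophils, 5271, 854, 1379, 1691, 2979 and 2798 in monocytes, and 2952, 1109, 1423, 1542, 3056 and 2574 in macrophages. The range of neutrophils lay above those of the other classes, while monocytes and macrophages overlapped. A Cxcl2 UMI was present in 94.9% to 98.5% of neutrophils. In monocytes the share was 89.6% in control and 41.7% to 71.5% in the treated libraries.

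T cells, which should hold little Cxcl2, were used as the class to compare with. Whether UMIs in them came from free RNA or from doublets was not tested. A Cxcl2 UMI was found in 54.0% of control T cells (median 6240 UMIs per cell) and in 6.46% to 17.0% of treated ones (medians 5741.5 to 7551), and the summed level was 1207, 114, 160, 125, 221 and 223 CPM. Thinned to 1000 UMIs per cell, the control shares were 97.3% in neutrophils, 72.2% in monocytes, 60.8% in macrophages and 22.5% in T cells. Thinning left out 135, 53, 32 and 14 control cells of these classes that were shallower. All 3 myeloid classes thus stood above the T cells. In treated T cells the UMIs were concentrated, with 54.9% to 79.5% of them in the top 1% of cells and up to 244 in a cell, and in control 32.9% of them.

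Cxcl3 was also highest in neutrophils in 6 of 6 libraries, and it differed most between control and treated libraries. Its level was 3434, 333, 627, 461, 1048 and 880 CPM in neutrophils. In monocytes it was 998, 23.7, 43.5, 83.9, 55.6 and 133 CPM. In macrophages it was 432, 23.0, 25.8, 49.3, 37.6 and 63.7 CPM. In each class control stood above all 5 treated libraries, and 2DG alone was the lowest. The counting intervals of control, 3406 to 3461 CPM in neutrophils, did not reach the highest treated value, whose interval was 981 to 1119 CPM. In treated neutrophils the top 10% of cells held 63.4% to 76.5% of the Cxcl3 UMIs, against 43.7% in control. The median was 7 Cxcl3 UMIs per cell in control and 0 in each treated library. Such a share depends on level and depth, and a difference in spread beyond these was not tested.

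Fewer cells held Cxcl3, too. The share of neutrophils with a UMI was 73.4% in control and 28.3% to 42.2% in the treated libraries. Thinned to 1000 UMIs per cell it was 63.5% against 18.2% to 32.0%. In monocytes it was 47.0% against 2.73% to 11.9%, and 28.4% against 1.13% to 5.40% after thinning. In T cells it was 17.1% in control and 0.376% to 1.04% in treated libraries, so that the split between control and the rest was present in this lymphoid class too.

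**Figure D1:**
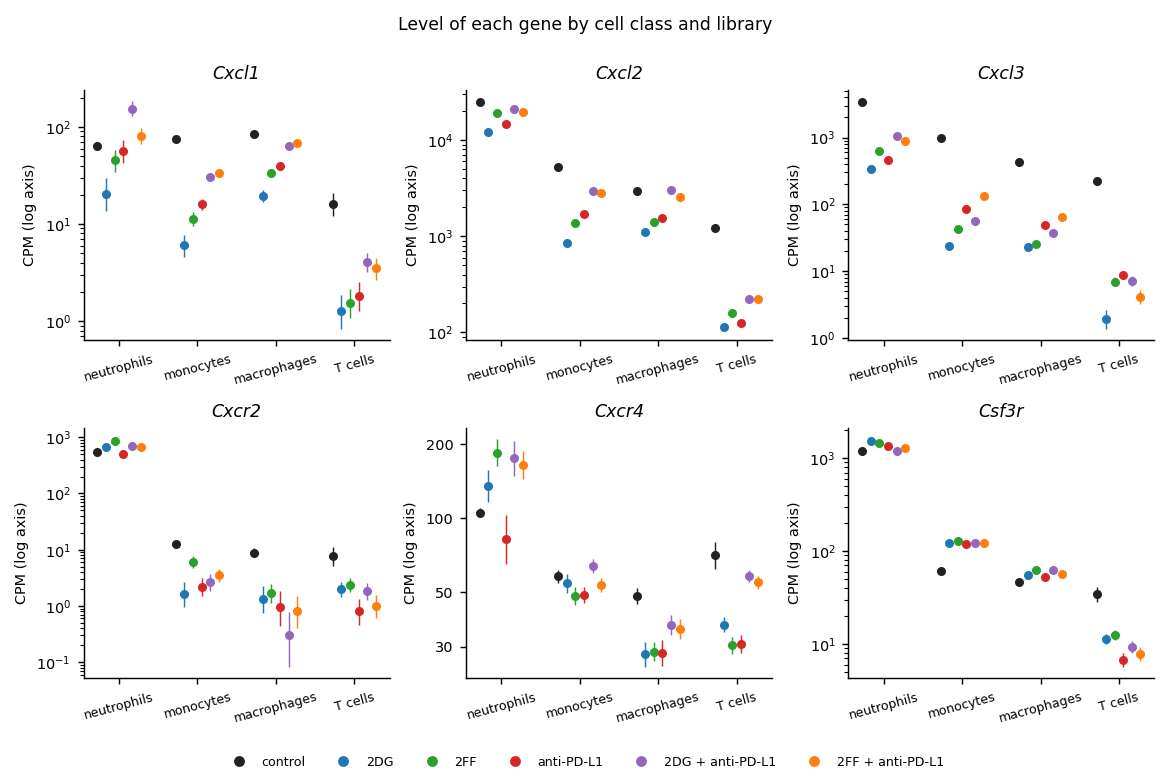
Level of 6 genes in CPM (log axis) in neutrophils, monocytes, macrophages and T cells, with 1 point per library and 95% counting intervals. The black control points lie above the treated points for Cxcl3 in all 4 classes, whereas for Cxcr2 and Csf3r the neutrophils of all libraries lie close together and far above the other classes.

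The counts of Cxcl3 relative to Cxcl2 show that the difference was not shared equally by both ligands. Per 100 Cxcl2 UMIs, neutrophils held 13.6, 2.74, 3.26, 3.09, 4.95 and 4.53 Cxcl3 UMIs. Monocytes held 18.9, 2.78, 3.15, 4.96, 1.87 and 4.74, and macrophages 14.6, 2.07, 1.81, 3.19, 1.23 and 2.48. The ratio was thus highest in control in each class. T cells gave 18.5, 1.69, 4.35, 7.05, 3.27 and 1.86, so that control was highest there as well. In aPDL1 the T cell value (interval 6.01 to 8.22) was above those of the myeloid classes, and in 2FF with aPDL1 (1.46 to 2.34) it was below those of neutrophils and monocytes.

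**Figure D2:**
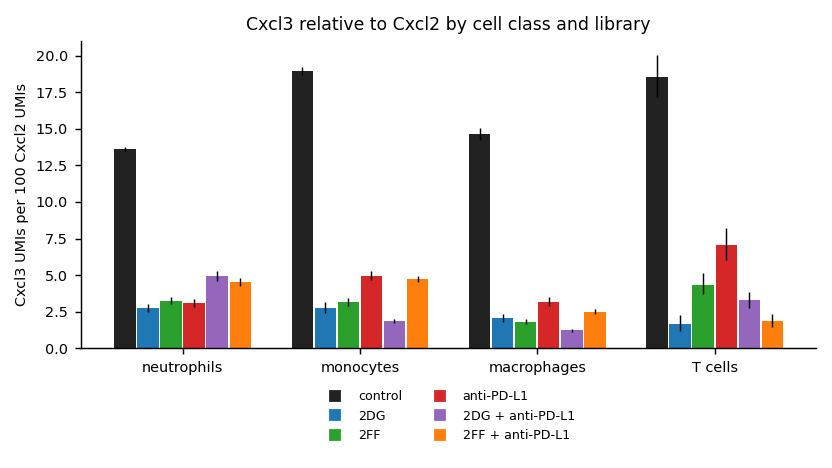
Cxcl3 UMIs per 100 Cxcl2 UMIs (linear axis from 0) by cell class and library, with 95% counting intervals. Control bars reach 13.6 to 18.9 and no treated bar in the 4 classes passes 7.05.

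Cxcl1 was sparse in all classes. Its level was 63.7, 20.5, 45.3, 56.4, 155 and 80.7 CPM in neutrophils, 75.6, 6.03, 11.4, 16.0, 30.6 and 33.5 CPM in monocytes, and 84.5, 19.4, 33.2, 39.6, 63.2 and 68.7 CPM in macrophages. Neutrophils and macrophages changed order between libraries. Among the treated libraries, macrophages gave 41.6% to 57.5% of all Cxcl1 UMIs, and in control 20.5%. Ungated control cells held 1557 of the 5461 control UMIs, at 122 CPM, which was above the gated myeloid classes of control. In the treated libraries ungated cells were at 12.5 to 43.2 CPM.

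Cxcl1 rested on few cells. A UMI was present in 276 of 3258 control neutrophils and in 9 of 332 in 2DG. In the aPDL1 library 8 of 270 neutrophils held a UMI, and 1 cell had 35 of the 54 UMIs. In 2DG with aPDL1, 30 of 272 neutrophils held one. Among these 30 cells all 30 also had Cxcl2 and 15 had Cxcl3, compared with 237 and 94 of the 242 neutrophils without Cxcl1.

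Csf3, the ligand of Csf3r, was close to absent. All libraries together held 63 Csf3 UMIs in 43 of 51633 cells (0.0833%), with 14, 1, 5, 7, 24 and 12 UMIs per library. Monocytes of 2DG with aPDL1 held 18 of them in 7 cells and control neutrophils 9 in 7 cells. At this depth no class could be compared, and no Csf3 result follows.

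Cxcr2 marked neutrophils. Its level was 543, 658, 862, 504, 694 and 664 CPM in neutrophils, against 12.6, 1.66, 6.14, 2.20, 2.63 and 3.49 CPM in monocytes and 8.88, 1.36, 1.69, 0.972, 0.307 and 0.829 CPM in macrophages. Neutrophils gave 75.7% to 91.6% of all Cxcr2 UMIs in a library. The mast cell and basophil gate held 1 to 6 cells per library. A Cxcr2 UMI was present in 3 of 5 of them in 2FF, 2 of 4 in aPDL1 and 4 of 6 in 2FF with aPDL1 (416 CPM, interval 200 to 765). In control, 2DG and 2DG with aPDL1 there was none, and these cells are too few to compare. T cells had 7.83, 2.02, 2.40, 0.812, 1.84 and 1.01 CPM, so that macrophages did not stand clearly above T cells in any library, and in 2DG with aPDL1 their interval (0.0835 to 0.785 CPM) lay below that of T cells (1.29 to 2.55 CPM). The macrophage level is therefore not read as expression by macrophages, and its source was not tested. A Cxcr2 UMI was present in 60.7% to 76.4% of neutrophils. In control T cells it was 2.95% and in control monocytes, with a median of 10182 UMIs per cell, 6.13%.

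Csf3r was the other receptor with a clear neutrophil level, at 1199, 1521, 1463, 1340, 1195 and 1297 CPM. The highest and lowest libraries, 2DG and 2DG with aPDL1, differed by less than 2-fold. Monocytes followed with 60.5, 123, 129, 120, 122 and 121 CPM, and macrophages with 47.0, 55.6, 63.0, 52.4, 61.9 and 57.0 CPM. T cells were at 34.5, 11.3, 12.4, 6.80, 9.36 and 7.82 CPM. Control monocytes stood below the 5 treated libraries, which lay between 120 and 129 CPM. Neutrophils gave 85.5% of the Csf3r UMIs in control, 23.5% to 43.2% in the treated libraries, where monocytes gave 25.7% to 40.8%.

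Cxcr4 had no such restriction. Its level was 105, 135, 185, 82.6, 175 and 165 CPM in neutrophils, 57.9, 54.4, 48.3, 48.8, 63.9 and 53.3 CPM in monocytes, and 48.3, 27.9, 28.7, 28.3, 36.8 and 35.4 CPM in macrophages. B cells, at 207, 132, 121, 115, 152 and 214 CPM, overlapped with neutrophils. T cells had 70.8, 36.8, 30.3, 30.8, 58.2 and 54.9 CPM. In neutrophils aPDL1 alone was lowest and 2FF highest.

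**Figure D3:**
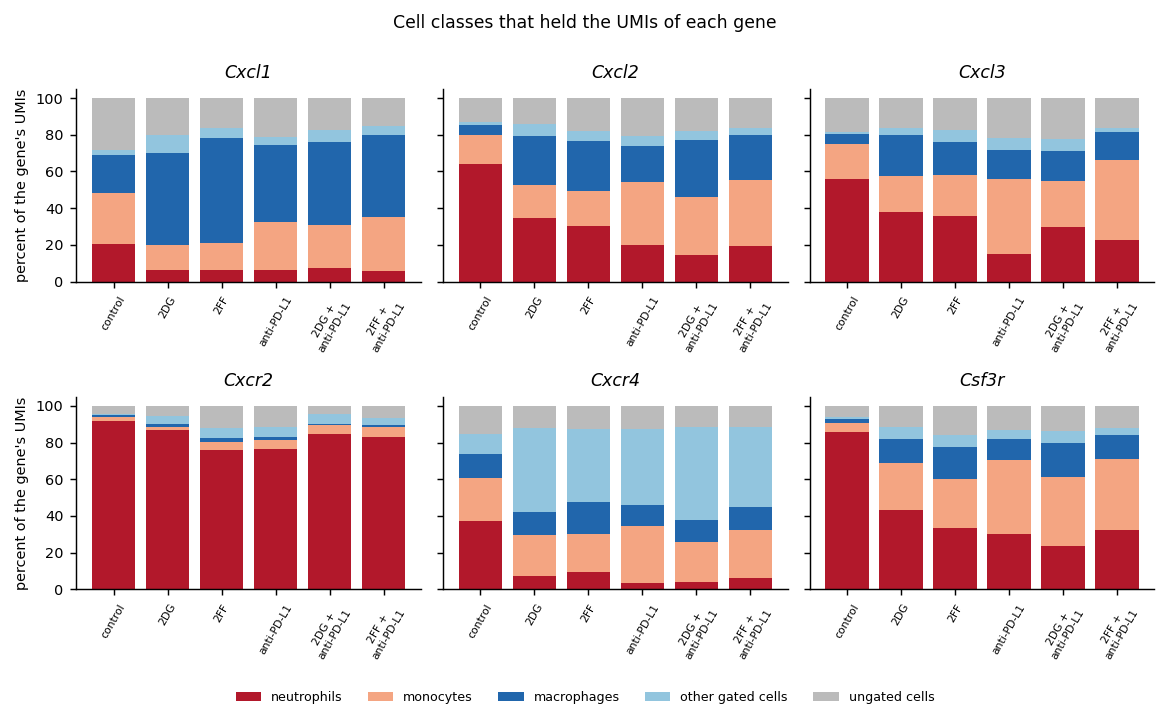
Percent of each gene's UMIs in a library that lay in neutrophils, monocytes, macrophages, other gated cells (tumor gate included) and ungated cells. The neutrophil part of Cxcl2 is 64.3% in control and 14.3% to 34.9% in the treated libraries, while for Cxcr2 it stays at 75.7% or more.

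Over the whole library the neutrophil numbers weigh in. Cxcl2 UMIs numbered 684284, 45834, 87087, 71810, 128369 and 141221, and neutrophils gave 64.3%, 34.9%, 30.3%, 19.9%, 14.3% and 19.6% of them. In treated libraries the monocytes and macrophages together therefore gave more Cxcl2 UMIs than the neutrophils did. Cxcl3 UMIs numbered 106794 in control and 1155 to 5510 in the treated libraries.

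The comparison between libraries asks which of these genes differ between each treated library and the control library. A gene was called when its CPM plus 5 differed by at least 2-fold between the 2 libraries, among genes whose UMIs in that pair summed to 50 or more. Csf3 did not reach this minimum and the other 6 members did in each comparison with control. In neutrophils Cxcl3 was called lower in all 5 treated libraries (log2 ratios -3.35, -2.44, -2.88, -1.71 and -1.96 for 2DG, 2FF, aPDL1, 2DG with aPDL1 and 2FF with aPDL1), as were 0.959% of the 9281 genes tested in all 5. No other member was called in all 5, and none was called higher in all 5, as were 1.0% of genes. Cxcl2 stayed within 2-fold except in 2DG (-1.05). The other Cxcl2 ratios were -0.39, -0.76, -0.25 and -0.37.

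By library, 3 of the 6 members were called in neutrophils in 2DG (Cxcl1, Cxcl2 and Cxcl3, all lower), beside 11.3% of all genes tested. Cxcl1 had 27 UMIs in 2DG against 1113 in control, so it met the minimum through control and its call is given as a value only. In 2FF, aPDL1 and 2FF with aPDL1 1 of 6 was called, Cxcl3, beside 10.8%, 8.52% and 7.17%. In 2DG with aPDL1, Cxcl3 was lower and Cxcl1 higher (1.22), beside 10.1%. Cxcr2 ratios ran from -0.11 to 0.66 and Csf3r ratios from -0.00 to 0.34, all within 2-fold, and so did Cxcr4, from -0.33 to 0.78. With each cell thinned to 1000 UMIs, or with doublet-like cells left out, the Cxcl2 ratio of 2DG was -0.74 or -0.78 and was no longer called, nor was it with the T cell level of each library subtracted (-0.99), and without doublet-like cells that of Cxcl1 was -0.76. The median ratio of all genes lay above 0 by up to 0.18 in neutrophils (2DG with aPDL1) and 0.14 in monocytes (2DG), and with ratios centred on it Cxcl3 was still called lower in all 5 libraries in each class.

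**Figure D4:**
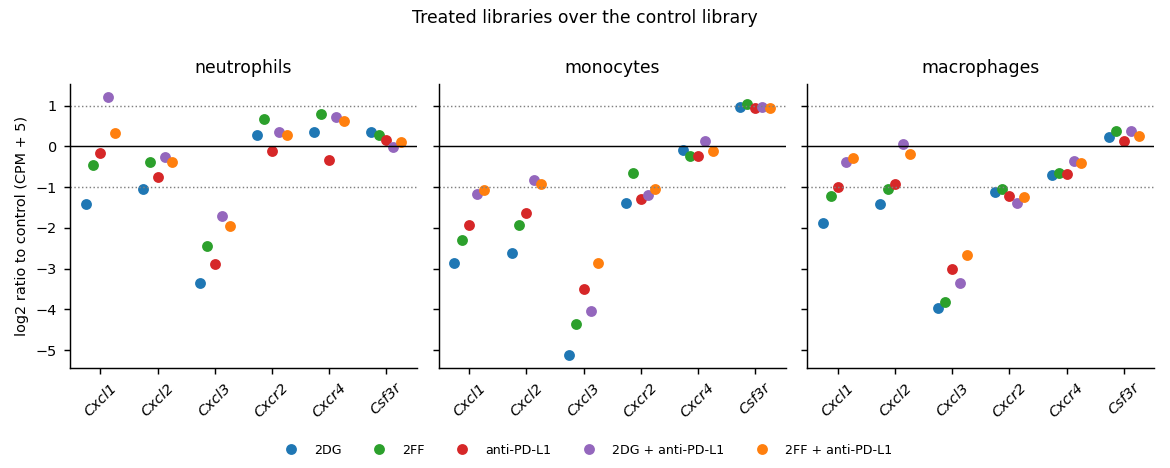
Log2 ratio of CPM plus 5 of each treated library over the control library for 6 genes in 3 cell classes. Dotted lines mark 2-fold, and the Cxcl3 points lie below the lower line for all 5 libraries in each class, at -1.71 or less in neutrophils and at -2.67 or less in macrophages.

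In monocytes Cxcl1 and Cxcl3 were called lower in all 5 treated libraries, as were 1.19% of 10814 genes, and no member was called higher in all 5, as were 1.51%. The log2 ratios of Cxcl3 were -5.13, -4.37, -3.49, -4.05 and -2.86, and those of Cxcl1 -2.87, -2.30, -1.94, -1.18 and -1.07. Under the stricter gate, and with the T cell level subtracted, Cxcl1 was called in 4 of 5, with -0.85 and -0.89 as the highest ratios. Cxcl2 was called in the 3 single-agent libraries, at -2.62, -1.93 and -1.64, and not in the combinations, at -0.82 and -0.91. By library, 4, 4, 4, 3 and 3 of 6 members were called, beside 7.45%, 6.3%, 5.87%, 7.72% and 4.65% of all genes tested. Except in 2FF, each of these member counts includes Cxcr2, whose low treated counts are given below. Csf3r went the other way, with 0.97, 1.04, 0.93, 0.95 and 0.94, of which only 2FF passed 2-fold. Without doublet-like cells all 5 passed it, at 1.39 to 1.47, while centred on the median of all genes none did, at 0.81 to 0.93. With the T cell level subtracted they were 1.92 to 1.98. Cxcr4 stayed between -0.24 and 0.13.

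Cxcr2 was called lower in monocytes in 4 of 5 treated libraries, with 253 UMIs in control and 16, 74, 32, 36 and 63 in the treated ones, so that in 3 of the 5 it met the minimum through control. With the T cell level of the same library subtracted, an alternative added after the data were seen, no library passed 2-fold (-0.96 to -0.16). Without doublet-like cells 2 of 5 passed it. The same subtraction left Cxcl3 called in all 5 libraries in monocytes, at -4.86 to -2.55, and in macrophages, at -3.16 to -1.72. In control, Cxcl3 was at 432 CPM in macrophages and at 224 CPM in T cells.

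In macrophages Cxcl3 and Cxcr2 were called lower in all 5 treated libraries, as were 0.552% of 11056 genes, and none was called higher in all 5, as were 0.443%. Cxcr2 reached the minimum of 50 UMIs through control alone (118 UMIs, against 15, 28, 9, 4 and 11 in the treated libraries), and its calls are given as values, not as a result about macrophages. The log2 ratios of Cxcl3 were -3.96, -3.82, -3.01, -3.36 and -2.67. Those of Cxcr2, -1.39 to -1.05, were -0.28 to -0.23 with the T cell level subtracted, and under the stricter gate 2 of 5 were called. Cxcl2 was called in 2DG (-1.41) and 2FF (-1.05) and was within 2-fold in aPDL1 (-0.93) and in the combinations (0.05 and -0.20). With the T cell level subtracted neither call was left (-0.81 to 0.70), and under the stricter gate or without doublet-like cells 1 was. Csf3r lay at 0.14 to 0.39, and with the T cell level subtracted it was called higher in all 5, at up to 1.72. With each cell thinned to 1000 UMIs, Csf3r lay at -0.20 to 0.04 and was called in none. Cxcl1 was called in the 3 single-agent libraries, at -1.88 in 2DG, -1.23 in 2FF and close to the threshold in aPDL1, and not in the combinations, at -0.39 and -0.28. It was called in 2 libraries under the stricter gate, with the T cell level subtracted, or with at least 500 genes per cell. By library, 4, 4, 3, 2 and 2 of 6 members were called, beside 2.21%, 3.42%, 2.08%, 4.48% and 2.78% of all genes. Each of these member counts includes Cxcr2, which reached the minimum through control alone.

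The combinations were also set against aPDL1 alone, which asks what 2DG or 2FF adds. In neutrophils 2DG with aPDL1 was above aPDL1 by 1.38 for Cxcl1, 1.18 for Cxcl3 and 1.04 for Cxcr4 on the log2 scale, so that 3 of 6 members were called, beside 4.75% of all genes. The Cxcl1 value rests on the few cells described above, and Cxcr4 was at 152 against 79 UMIs. The median log2 ratio of all genes in this pair was 0.107, and Cxcr4 passed the threshold by less than that. For 2FF with aPDL1 0 of 6 were called, beside 2.59%, with Cxcl3 at 0.93 and Cxcr4 at 0.96. Cxcl2 was above aPDL1 in each class without being called, by 0.51 and 0.38 in neutrophils, 0.82 and 0.73 in monocytes and 0.98 and 0.74 in macrophages for the 2DG and 2FF combinations. In monocytes 0 of 6 and in macrophages 0 of 5 members were called for either combination, beside 0.494% and 0.617% of genes in monocytes and 1.1% and 0.61% in macrophages. Cxcl3 in monocytes was below aPDL1 with 2DG (-0.55) and above it with 2FF (0.63).

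Other values moved between the same libraries, and their part in these ratios was not tested. The summed CPM of the 12 neutrophil gate markers in monocytes was 1390 in control and 243 to 626 in the treated libraries, in macrophages 835 against 176 to 257, and in T cells 1336 against 186 to 308. The 12 macrophage gate markers in monocytes gave 4510 against 1627 to 2161 CPM. Median UMIs per cell were 3811 in control neutrophils and 2488 to 3141.5 in treated ones, and 10182 against 6417 to 8098 in monocytes. The 8 check markers of neutrophils, several of them granule genes of young cells, summed to 3922 CPM in control neutrophils and 8069 to 15263 in treated ones.

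The neutrophils were therefore split by 6 markers of early stages (Ngp, Camp, Ltf, Chil3, Cybb and Mki67) and 6 of late, activated ones (Siglecf, Ptgs2, Ccl3, Ccl4, Hilpda and Jun). These are ranges of a marker count and not cell types. Cells with more late than early markers were 93.5% of control neutrophils and 76.7% to 87.9% of treated ones. Within them Cxcl3 was 3625 CPM in control and 510, 770, 730, 1291 and 1192 CPM in the treated libraries. Cxcl2 was 26324 against 16309, 22200, 20357, 25171 and 24607 CPM. Within this late range Cxcl3 was again higher in control, whereas Cxcl2 in the combinations came close to control. Whether the libraries differed in stage or activation within the range was not tested.

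Cells with more early than late markers, 14 to 96 per library, had lower ligand and Csf3r levels than the late range in 6 of 6 libraries. Their median depth was 3248.5 UMIs in control and 5466 or more in treated libraries. Their Cxcl2 was 2846 to 7941 CPM, and their Cxcl3 was 749 CPM in control and 10.5 to 45.3 CPM in treated libraries. Csf3r was 152 to 719 CPM in them and 1208 to 1898 CPM in the late range. Cxcr2 was highest in the middle range, with as many early as late markers, in 5 of 6 libraries, 2FF with aPDL1 being the exception.

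**Figure D5:**
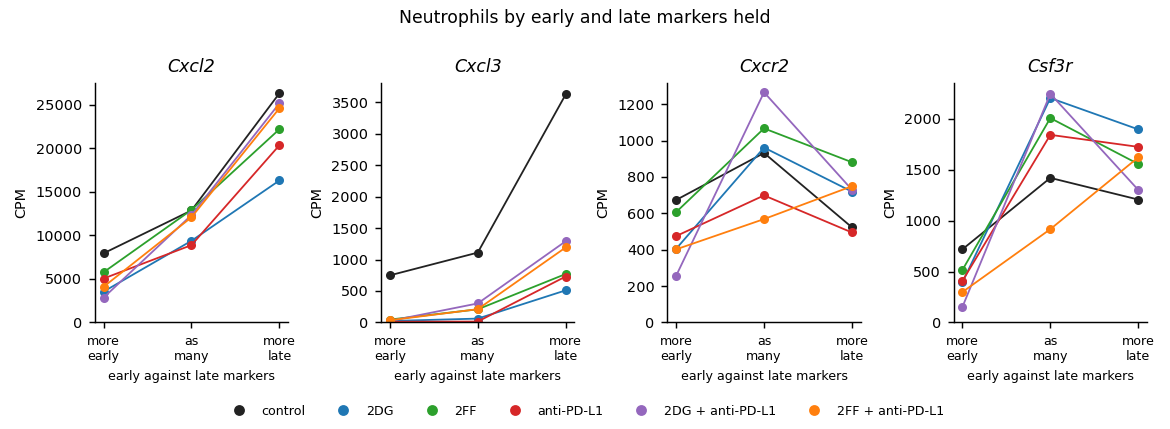
Level in CPM (linear axes from 0) of Cxcl2, Cxcl3, Cxcr2 and Csf3r in neutrophils holding more early, as many, or more late markers, with 1 line per library. Cxcl2 climbs from 2846 to 7941 CPM in the early range to 16309 to 26324 CPM in the late range, and the control line of Cxcl3 lies above the others throughout.

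Neutrophils were also split by whether they held a Cxcr2 UMI. Cells without a Cxcr2 UMI had 29391, 16855, 20365, 20819, 24470 and 24554 CPM of Cxcl2, and cells with one 23849, 10855, 18959, 12209, 19451 and 17587 CPM. The level was thus higher without a Cxcr2 UMI in 6 of 6 libraries. Cxcl3 was likewise higher without one in 6 of 6, for example 4580 against 3065 CPM in control and 1732 against 690 CPM in 2DG with aPDL1. Csf3r was lower without one in 6 of 6, at 735 to 1251 against 1330 to 1644 CPM. Cells without a Cxcr2 UMI were shallower (median 3203 against 4354 UMIs in control), and depth alone moves cells between these 2 sets.

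Macrophages split by Spp1 and C1q programs. Cells with more of Spp1, Gpnmb, Arg1 and Fabp5 than of C1qa, Mrc1, Folr2 and Selenop held 1105 CPM of Cxcl3 in control, against 124 CPM in cells with more of the latter. In the treated libraries the values were 47.0 to 122 against 5.33 to 31.9 CPM. Cxcl2 was likewise higher on the Spp1 side in 6 of 6 libraries, at 4874 against 1843 CPM in control. The control library stood above the treated ones on both sides for Cxcl3.

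Monocytes with more of Ace, Cd300e and Treml4, genes of the non-classical type, held less Cxcl2 and more Cxcr4 than those with more of Ly6c2, Vcan and Ccr2, genes of the classical type. Cxcr4 was 75.5 to 142 CPM in the former and 36.8 to 54.5 CPM in the latter, without overlap. Cxcl2 was 283 to 1528 CPM against 1045 to 5410 CPM. Csf3r was 142 against 56.8 CPM in control, while in the treated libraries both sides lay between 116 and 129 CPM.

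The other genes of the pathway, 36 in 6 lists, showed where the members' neighbours stood. In neutrophils 28 or 29 of them could be tested against control, and 1, 2, 1, 2 and 2 were called higher and 4, 4, 5, 1 and 3 lower, beside 4.11% to 6.13% of all genes higher and 3.06% to 5.49% lower. Each lower count includes Pf4, and those of 2DG, 2FF and aPDL1 include Il6. That of aPDL1 also includes Cxcl15, and that of 2FF with aPDL1 includes Cxcr1. These genes met the minimum of 50 UMIs through control, so the lower counts are given as values only. Tnf, an inducer of these chemokines, was higher in all 5 (86.7 CPM in control, 192 to 324 in treated, log2 ratios 1.10 to 1.84). Nfkb1 was above control in all 5, at 0.68 to 1.34, and called in the combinations. Il1b was between -0.13 and 0.81. Cxcr1, listed with the other receptors of neutrophils, was at 28.4 CPM in control and was called lower only in 2FF with aPDL1, at 9.83 CPM. It met the minimum of 50 UMIs through control, so this call is given as a value only.

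Pf4, a platelet chemokine that lacks the ELR motif and is not known as a Cxcr2 ligand, although it was listed with the Cxcr2 ligands here, was lower in all 5 treated libraries in each class, 732 CPM in control macrophages against 173 to 246 CPM. In neutrophils Pf4 was at 28.0 CPM in control and as low as 2.09 CPM in treated libraries. Ppbp, the precursor of the Cxcr2 ligand Cxcl7, was lower in all 5 in monocytes (18.1 against 0.208 to 1.08 CPM) and macrophages (58.0 against 0.544 to 12.9 CPM). Pf4 in neutrophils and Ppbp in monocytes met the minimum of 50 UMIs through control, and these calls are given as values only. The same holds for Ppbp in macrophages in 2DG and in 2FF with aPDL1, at log2 ratios of -3.51 and -3.34. Pf4 and Ppbp are products of platelets and megakaryocytes as well. Cxcl5 reached at most 1.05 CPM in the 3 classes and had 17 UMIs in 1 cell of the tumor gate. Cxcl12, the ligand of Cxcr4, reached at most 0.702 CPM. Mif, which can also bind Cxcr4, was lower in neutrophils in 4 of 5 libraries, at 551 CPM in control and 213 to 427 CPM in treated.

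In monocytes 28 pathway genes were tested, of which 0, 0, 0, 2 and 1 were called higher and 9, 6, 7, 7 and 4 lower, beside 3.07% to 4.46% of all genes higher and 1.58% to 3.39% lower. Each lower count includes Ppbp and Ackr3, which met the minimum of 50 UMIs wholly or mainly through control. C5ar1, the receptor of the complement fragment C5a, was lower in all 5 (287 against 73.0 to 121 CPM), and so was Ackr3, a scavenger receptor of Cxcl12 (19.0 CPM in control, log2 ratios -2.09 to -1.57). Ackr3 fell to 0.656 CPM in 2DG with aPDL1 and met the minimum of 50 UMIs mainly through control, so its calls are given as values only. Il6 was lower in 4 of 5, with 112 CPM in control and log2 ratios of -2.44 to -0.84. Il1a was lower in 4 of 5, at -2.34 to -0.71.

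In macrophages 28 were tested, of which 0, 2, 0, 2 and 1 were called higher and 4, 5, 4, 4 and 3 lower, beside 0.935% to 2.04% of all genes higher and 1.13% to 2.45% lower. Besides Pf4 and Ppbp, the lower calls included Il6, with log2 ratios of -1.61, -1.69, -1.19, -1.09 and -0.62. They also included Csf1, at -1.11, -1.39, -0.66, -1.43 and -1.01. Il1b was above control in all 5 (373 against 494 to 1278 CPM) and was called in 2FF and both combinations. The decay factor Zfp36, which shortens the life of cytokine mRNA, was lower in aPDL1 (-1.54), -0.88 in 2DG, -0.00 in 2FF and 0.33 and 0.40 in the combinations.

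Over 54 sums of a class in a library, the genes whose log2 level ran most like that of each member were counted as a description. Sums of 1 library share its depth, and those of a class share its cells. For Cxcl2 they were Clec4d (Pearson r 0.974), Clec4e (0.957) and Il1a (0.944). For Cxcl3 they were Egln3 (0.938), E230016K23Rik (0.933) and Ero1l (0.918), and for Cxcl1 Ak4 (0.893), Ninj1 (0.868) and Fam20c (0.866). For Cxcr2 they were Steap4 (0.979), Mgam (0.978) and Mirt2 (0.975), for Csf3r Arg2 (0.951), Rab44 (0.951) and Acod1 (0.949), and for Cxcr4 Klhl24 (0.899), Tsc22d3 (0.829) and Rb1cc1 (0.809). Among the members, Cxcl2 with Csf3r had 0.920, Cxcl2 with Cxcl3 0.913 and Cxcr2 with Cxcr4 0.473.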

How the data were processed

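Single-cell 3′ RNA libraries (10x Genomics) from 6 groups of mice, 1 library each, were grouped by the treatment in the labels. The values deposited by the authors are UMI counts of each gene in each cell without normalization, made with Cell Ranger on mm10 (version 7.0.0 in the matrix headers and the methods, 3.1.0 in the submitters' processing notes). The study's limits were applied here: at least 250 genes and at most 5% mitochondrial UMIs per cell, which kept 51633 of 57078 cells. Between 16 and 34 barcodes were shared by any pair of libraries.

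A cell took the class of which it held the largest share of gate markers (at least 3 with a UMI), if the next class was at least 10 percentage points lower, and 7610 cells stayed ungated. No doublet caller was run, and an alternative leaves out doublet-like cells. UMIs were summed per class and library, and ratios were taken of CPM plus 5 over genes with at least 50 UMIs. Intervals are exact Poisson or Clopper-Pearson ones at 95%. The ratio and thinning functions were tested on simulated data. Python 3.11.15, numpy 2.4.6, scipy 1.17.1 and pandas 2.3.3 were used. Alternatives were another mitochondrial, gene or UMI limit, pseudocount, gate, thinning and centring.

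Named genes were the 7 members, the pathway lists and the 3 genes most like each member by Pearson correlation. The members and lists were chosen with earlier results of these data known. The authors' cell names were not used here.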

Additional observations from a re-analysis of the deposited data

How the results depend on the processing

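Cxcl3 was called lower in all 5 treated libraries in neutrophils, monocytes and macrophages under each of the alternatives tried. Of 90 alternatives for the summary counts, 1 moved by over 1.5 times: with doublet-like cells left out, the calls of members in macrophages over the 5 treated libraries numbered 9 and not 15, and Cxcr2 could then be tested in 1 library only. Among 1212 alternatives for single ratios 58 changed a call and 0 changed the sign of a called value. Of the 58, 23 came from subtracting the T cell level, 12 from leaving out doublet-like cells and 10 from the stricter gate (20 percentage points). The looser gate and the T cell subtraction were chosen after seeing the data, and the cause of these changes was not tested. No paired analysis was possible because each group has 1 library. Leaving out a replicate was not possible for the same reason. With a single library per group, a difference between mice cannot be told apart from one between treatments. With the T cell level of the same library subtracted, the libraries called lower went from 2 to 0 for macrophage Cxcl2, from 3 to 2 for macrophage Cxcl1, from 5 to 4 for monocyte Cxcl1, from 5 to 0 for macrophage Cxcr2 and from 4 to 0 for monocyte Cxcr2, while those called higher went from 1 to 5 for monocyte Csf3r and from 0 to 5 for macrophage Csf3r. The part of free RNA or doublets in these was not tested. With each cell thinned to 1000 UMIs instead, macrophage Csf3r lay at -0.20 to 0.04 and was called in 0 libraries.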
